A study of Mus musculus with 4 samples.

Results

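The genes described here are the parts of the cell division machinery that are commonly read as signs of proliferating cells: the helicase and enzymes of DNA replication, the cyclins with their kinase Cdk1, the kinases of mitosis, and the proteins of spindle and chromosome. They were chosen by name from a list of 36 symbols, not from their values. A platform annotation named a probe set for 33 of them, each with 1 probe set, out of 19505 genes with a symbol. The cyclin B gene Ccnb1, the helicase gene Mcm7 and the transcription factor gene Foxm1 were not analysed here.

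Epididymal adipose tissue of male mice was hybridised to Clariom S Mouse arrays, 1-colour Affymetrix arrays. The 4 arrays were 1 of mice given GW4869 with muscle overload (GW-SA), 1 of GW4869 with sham surgery (GW-Sham), 1 of vehicle with overload (Veh-SA) and 1 of vehicle with sham surgery (Veh-Sham). Overload was done by synergist ablation, in which muscles that share the work of another are removed, the vehicle was DMSO, and GW4869 inhibits the release of extracellular vesicles. Strain, age, the dose and route of the drug, and whether an array held 1 mouse or a pool are not stated by the labels.

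Because each group is a single array, no value has a replicate error, a test or a p-value, and precision is limited by that number of arrays. A count of genes past 1.5-fold (0.58 log2 units) describes 2 arrays, and each count of cell cycle genes is set beside the percent of all 19505 genes past the same fold. Values are deposited log2 levels, which reach 19.93 on a scale whose origin is not given, so folds hold on that scale only. The table carries no detection flags. As a background mark, the 95th percentile of 23 antigenomic probe sets, which match no mouse sequence, was taken on each array, at 6.37 (GW-SA), 6.34 (GW-Sham), 6.35 (Veh-SA) and 6.40 (Veh-Sham). A gene is called readable where it lies above the mark. The mark is a choice of background. Over 5222 probe sets named as negative controls the 95th percentile was higher, at 9.27 (GW-SA), 9.18 (GW-Sham), 9.19 (Veh-SA) and 9.01 (Veh-Sham). Readable genes under those levels would not pass that bar, and limits set against it would be smaller or absent. A difference that involves a reading under the mark is a difference of deposited values only. Where the higher reading alone was readable, a lower limit set against the mark (at least N-fold) is given for the main genes, and where neither was, no fold is given.

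Mature adipocyte markers matched the labelled tissue on every array, with 15 of 15 above the mark and median levels of 17.06 (GW-SA), 17.42 (GW-Sham), 17.85 (Veh-SA) and 16.94 (Veh-Sham). Other tissue was also present. Of 16 genes of meiotic spermatocytes, the dividing germ cells of the testis, 2 were above the mark on GW-SA, 3 on GW-Sham, 2 on Veh-SA and 13 on Veh-Sham. Of 13 spermatid and sperm genes 4 were above it on GW-SA, 1 on GW-Sham, 1 on Veh-SA and all 13 on Veh-Sham. Of 13 epididymis genes 12 were above it on GW-SA, against 2 on GW-Sham, 0 on Veh-SA and 3 on Veh-Sham. Veh-Sham is the only array of its group, so no value of overload under vehicle or of GW4869 in sham mice exists without it. The other comparisons, overload under GW4869 and GW4869 in overloaded mice, do not use it. In whole tissue, fewer cells of a type and less RNA per cell cannot be told apart.

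A cell that prepares to divide loads the Mcm helicase onto its DNA in G1, copies the DNA in S phase with enzymes that include Pcna and ribonucleotide reductase, and then separates the copies in mitosis under Cdk1, the Aurora and Polo kinases and a checkpoint that watches the spindle. Male germ cells use much of the same machinery in meiosis, together with proteins of their own such as the A-type cyclin Ccna1. In adult fat most adipocytes do not divide, and the proliferating cells are mainly progenitors, endothelial cells and macrophages.

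Few of the cell cycle genes were readable on every array. Of the 33, 5 (15.2%) passed the mark on all 4 arrays, beside 40.2% of all genes, 2 on 3 arrays and 1 on 2. On 1 array alone 9 (27.3%) passed, beside 7.65% of all genes, and 16 (48.5%) were under the mark on all 4, a share close to the 46.2% of all genes. The number above the mark was 7 (21.2%) on GW-SA, 8 (24.2%) on GW-Sham, 7 (21.2%) on Veh-SA and 15 (45.5%) on Veh-Sham. Of all genes, 46.0%, 45.4%, 44.7% and 47.5% passed in that array order. The share was thus close to that of all genes on Veh-Sham and under it on the other arrays. The vehicle sham array was the one on which the cell cycle genes were most often readable. Their median level was 5.02 on GW-SA, 4.98 on GW-Sham, 4.42 on Veh-SA and 6.31 on Veh-Sham.

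**Figure D1:**
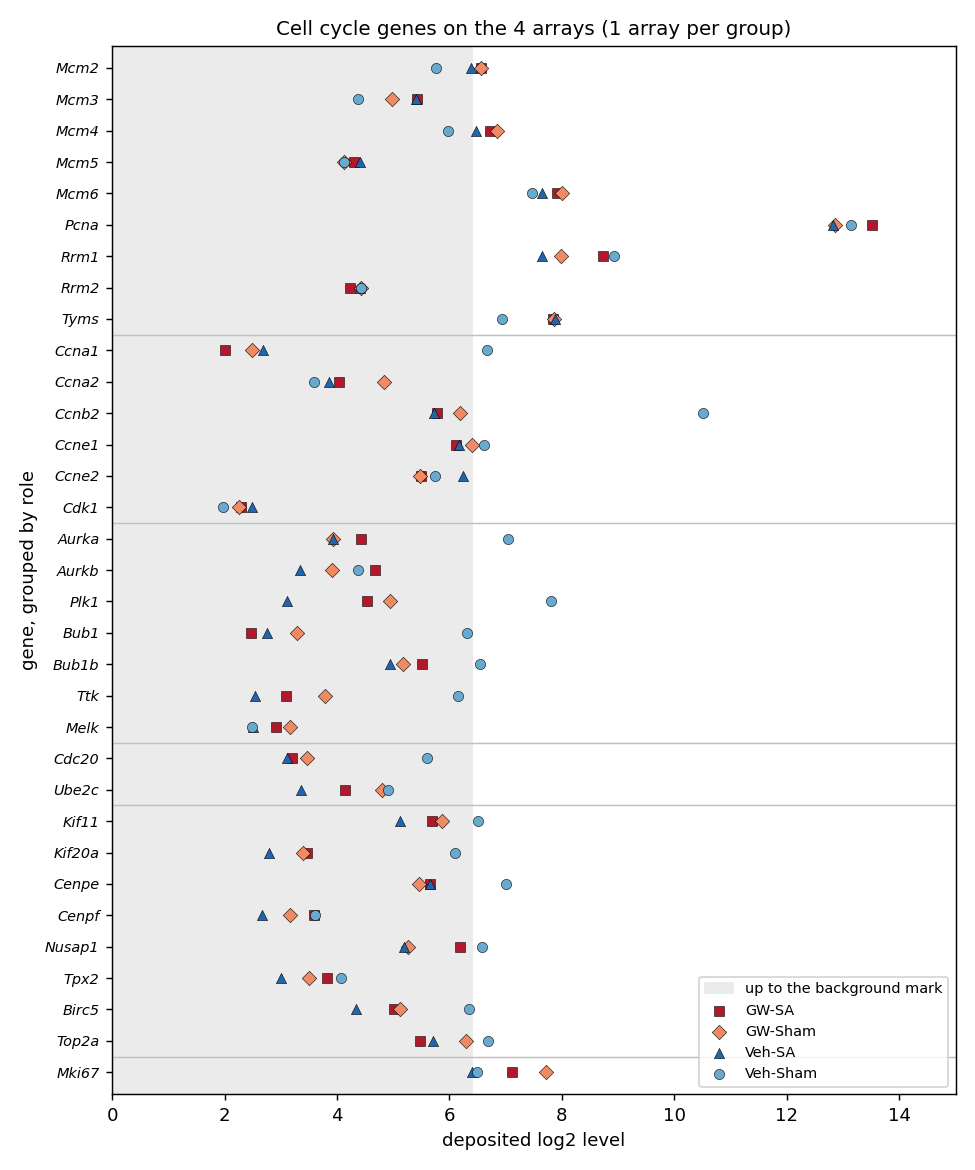
Deposited log2 levels (x axis) of the 33 cell cycle genes (rows, grouped by role) on GW-SA (squares), GW-Sham (diamonds), Veh-SA (triangles) and Veh-Sham (circles), 1 array each. Grey covers levels up to the background mark of the array where it is highest, 6.40. Circles stand to the right for Ccnb2, Plk1, Aurka and Ccna1, while the replication genes in the top block lie close together.

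Replication genes made up 4 of the 5 genes readable on every array. Pcna, the sliding clamp of DNA polymerase, which also serves DNA repair, was at 13.52 (GW-SA), 12.85 (GW-Sham), 12.82 (Veh-SA) and 13.14 (Veh-Sham). Rrm1, the large subunit of ribonucleotide reductase, was at 8.74, 7.99, 7.65 and 8.93 on GW-SA, GW-Sham, Veh-SA and Veh-Sham. Rrm1 was thus higher on GW-SA and Veh-Sham than on GW-Sham and Veh-SA. Rrm2, the subunit made mainly in dividing cells, read 4.22 (GW-SA), 4.43 (GW-Sham), 4.41 (Veh-SA) and 4.42 (Veh-Sham), under the mark on all 4 arrays. Tyms, which makes thymidylate for DNA, was at 7.84, 7.86 and 7.87 on GW-SA, GW-Sham and Veh-SA and at 6.93 on Veh-Sham. Only Veh-Sham stood apart for Tyms, and it stood low.

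The Mcm genes, whose products form the replicative helicase, were readable in 3 of 5 cases. Mcm6 was above the mark on every array, at 7.92 (GW-SA), 8.005 (GW-Sham), 7.65 (Veh-SA) and 7.46 (Veh-Sham). Mcm4 was at 6.73, 6.84, 6.48 and 5.97 and Mcm2 at 6.56, 6.55, 6.39 and 5.77 in that array order, both under the mark on Veh-Sham alone. Mcm3 (5.43, 4.98, 5.40 and 4.38) and Mcm5 (4.31, 4.12, 4.42 and 4.13) were under it throughout. For the readable Mcm2, Mcm4 and Mcm6, Veh-Sham was the lowest array. The median overload difference of the 5 measured Mcm genes was 0.00 log2 units under GW4869 and 0.51 under vehicle. The vehicle value turned to -0.40 when arrays were centred on the median of adipocyte genes and to 0.04 when centred on their mean. It rose to 0.98 with all-gene centring, with 5 of 5 past 1.5-fold, beside 56.0% of all genes. After quantile normalization the 5 differences ran from 0.38 (Mcm6) to 1.43 (Mcm3). The Mcm difference under vehicle thus depended on scaling.

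The cyclins did not move as a family. Ccnb2, a B-type cyclin that drives entry into mitosis with Cdk1, had 5.77 on GW-SA, 6.19 on GW-Sham and 5.72 on Veh-SA, all 3 under the mark, against 10.51 on Veh-Sham. Ccna1, the A-type cyclin made in mice largely by male germ cells and needed for their meiosis, had 2.01, 2.49 and 2.68 on GW-SA, GW-Sham and Veh-SA, against 6.66 on Veh-Sham. Ccna2, the A-type cyclin of ordinary dividing cells, was under the mark on every array, at 4.03 (GW-SA), 4.83 (GW-Sham), 3.86 (Veh-SA) and 3.58 (Veh-Sham). The germ cell cyclin thus passed the mark on Veh-Sham alone, and the somatic one on no array. Cdk1, the kinase that Ccna2 and Ccnb2 activate, read 2.29, 2.25, 2.50 and 1.96 on GW-SA, GW-Sham, Veh-SA and Veh-Sham, far under the mark on each, so that its probe set shows no pattern. Ccne1, which starts S phase with Cdk2, varied between 6.12 (GW-SA) and 6.62 (Veh-Sham), and Ccne2, its close relative, between 5.48 (GW-Sham) and 6.24 (Veh-SA).

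Mitotic kinases had the role median furthest from 0 in overload under vehicle, at -3.12 log2 units, although 3 of the 7 were readable, on Veh-Sham alone. Plk1, the Polo kinase of spindle assembly, was at 4.53 (GW-SA), 4.94 (GW-Sham) and 3.11 (Veh-SA), against 7.81 on Veh-Sham. Aurka, the Aurora kinase of the spindle poles, was at 4.43, 3.92 and 3.93 on GW-SA, GW-Sham and Veh-SA, against 7.05 on Veh-Sham. Bub1b, a spindle checkpoint protein, had 5.51, 5.17 and 4.94 on the same 3 arrays, against 6.53 on Veh-Sham. On Veh-Sham alone these genes passed the mark. The checkpoint kinases Bub1 and Ttk lay between 2.48 and 3.78 on GW-SA, GW-Sham and Veh-SA, and also peaked on Veh-Sham, at 6.31 (Bub1) and 6.16 (Ttk), still under the mark. Aurkb, the Aurora kinase of centromeres and cytokinesis, was under the mark throughout, at 4.67 (GW-SA), 3.92 (GW-Sham), 3.34 (Veh-SA) and 4.38 (Veh-Sham). Melk, a kinase found in progenitors and dividing cells, had 2.92 (GW-SA), 3.16 (GW-Sham), 2.51 (Veh-SA) and 2.49 (Veh-Sham), under the mark on each.

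Spindle and chromosome genes were highest on Veh-Sham in 8 of 8 cases, where 4137 of all 19505 genes were. Gaps to the next array ran from 0.03 log2 units, for Cenpf, which was under the mark on every array, to 2.63. Cenpe, a kinesin of the centromere, had 5.66, 5.45 and 5.66 on GW-SA, GW-Sham and Veh-SA, against 7.01 on Veh-Sham. Top2a, the topoisomerase that untangles sister chromatids, had 5.47, 6.30 and 5.70 against 6.69, and Kif11, the motor that pushes spindle poles apart, 5.68, 5.87 and 5.12 against 6.50, in the same array order. Nusap1, which binds spindle microtubules, had 6.18 on GW-SA, 5.26 on GW-Sham, 5.18 on Veh-SA and 6.58 on Veh-Sham. These 4 genes passed the mark on Veh-Sham only. Kif20a, a kinesin of cytokinesis, and Birc5, the survivin subunit of the Aurkb complex, reached 6.10 and 6.35 on Veh-Sham, under the mark, and Cenpf, a kinetochore protein, and Tpx2, an activator of Aurka, 3.61 and 4.06. The partners of the anaphase-promoting complex, which ends mitosis by marking cyclin B for destruction, were under the mark as well. Cdc20, its activator, had 3.20 (GW-SA), 3.47 (GW-Sham), 3.12 (Veh-SA) and 5.60 (Veh-Sham), and Ube2c, its ubiquitin-conjugating enzyme, 4.15, 4.81, 3.35 and 4.91 in that order.

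Mki67, the gene of the Ki-67 antigen by which pathologists count dividing cells, followed neither pattern. It was at 7.11 on GW-SA, 7.72 on GW-Sham, 6.40 on Veh-SA and 6.49 on Veh-Sham. Both GW4869 arrays were above both vehicle arrays, and the vehicle values lay close to the mark.

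Counted together, 12 of the 33 genes were at least 1.5-fold higher on Veh-Sham than on each of the other arrays, where 10.6% of all genes were. For GW-Sham the count was 2 (Ccna2 and Mki67), beside 2.94% of all genes. For GW-SA it was 0, beside 5.68%, and for Veh-SA 0, beside 5.49%. All 12 genes of the Veh-Sham count lay outside the replication group, and 7 of them were readable there, while Bub1, Ttk, Cdc20, Kif20a and Birc5 were under the mark. This count was chosen after the values were seen.

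Overload under vehicle came with lower readings of the mitotic genes. Of the 33 genes, 19 were at least 1.5-fold lower in Veh-SA than in Veh-Sham, where 16.7% of all genes were, and 3 were higher (27.2% of all genes). Their median difference was -1.04 log2 units, and the median of all genes 0.21. By role, 8 of 8 spindle and chromosome genes were lower, 6 of 7 mitotic kinases, 2 of 2 anaphase-promoting complex partners, 2 of 6 cyclins with Cdk1, and 1 of 9 replication genes, Rrm1. Of the 19, Rrm1 was readable on both arrays, 9 on Veh-Sham only and 9 on neither. Deposited values differed by -4.79 for Ccnb2, -4.70 for Plk1 and -3.98 for Ccna1, each with a Veh-SA reading under the mark. Against the mark, Ccnb2 was at least 17.9-fold lower in overload, Plk1 at least 2.75-fold, Aurka 1.63-fold, Cenpe 1.58-fold and Ccna1 1.24-fold. Rrm1 differed by -1.28 (2.43-fold). The 3 genes that were higher in overload were Mcm3 (1.03, under the mark on both arrays), Tyms (0.95) and Mcm2 (0.62).

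Centring the arrays changed the counts on both sides, since it moved the median of all genes to 0.68 (all-gene centring), -0.70 (adipocyte median) or -0.26 (adipocyte mean). Centred on the median of all genes, 9 of the 33 were higher and 15 lower, beside 56.0% and 11.4% of all genes. With the median of adipocyte genes the counts were 0 and 27, beside 2.56% and 57.7%. With the mean of adipocyte genes they were 0 and 21, beside 9.07% and 31.2%. All 19 genes kept a lower reading in overload under these settings and after quantile normalization, and 15 of them stayed past 1.5-fold. With values under the mark set to it, 1 of the 33 was higher and 5 lower, beside 13.8% and 9.37% of all genes. Levels of the spermatocyte and spermatid lists moved with the mitotic genes: their medians were 3.68 and 3.98 on Veh-SA, against 9.07 and 14.04 on Veh-Sham, and 16 of 16 and 13 of 13 of their genes were lower in overload. The log2 of the summed spermatocyte level was 10.50 on Veh-SA and 17.21 on Veh-Sham. Their part in the result was not tested.

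**Figure D2:**
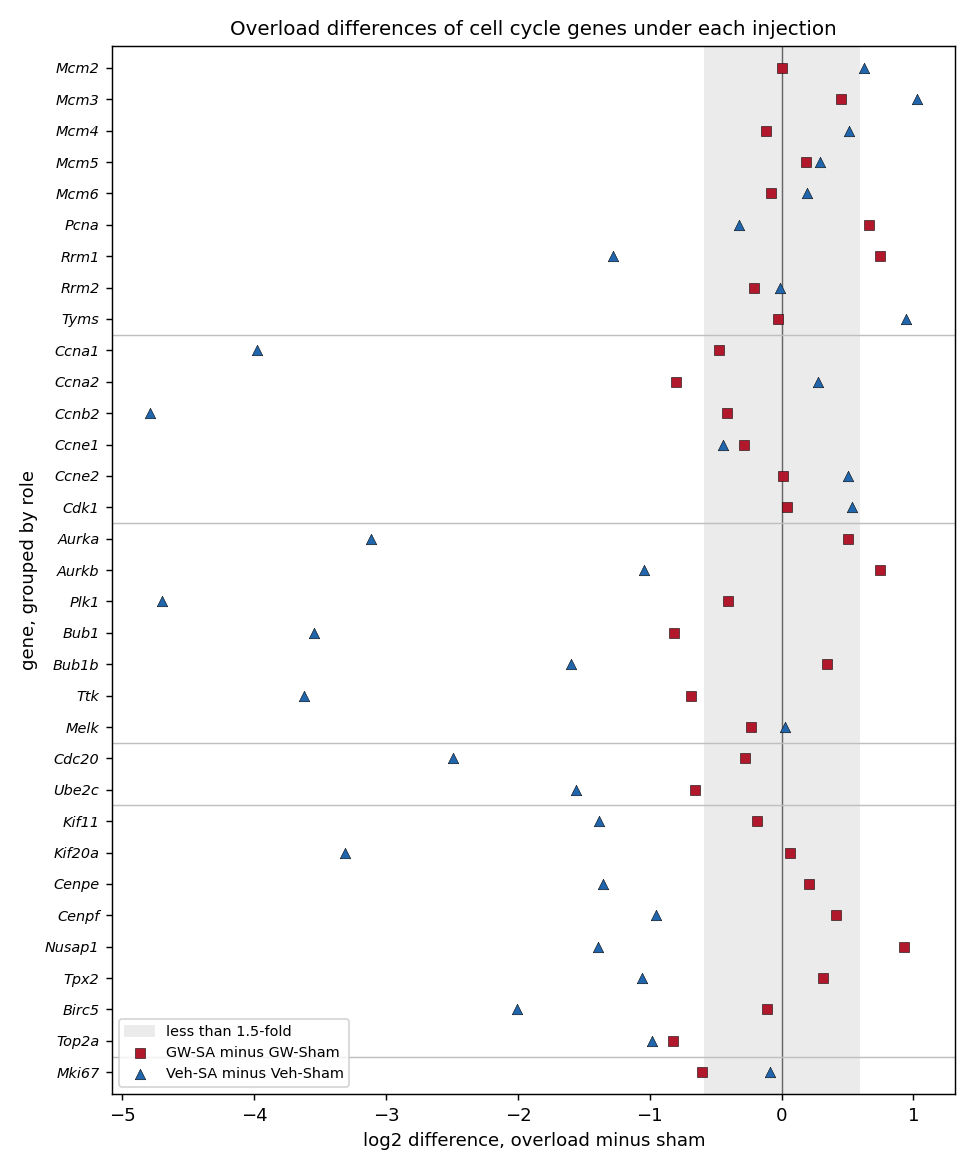
Log2 differences of overload minus sham (x axis) for each cell cycle gene (rows, grouped by role), under GW4869 (squares) and under vehicle (triangles), from 1 array per group and without error bars. The grey band holds differences under 1.5-fold. All squares lie between -0.83 and 0.93, while triangles reach -4.79 for Ccnb2.

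Promoters are shown for 5 genes that differ in this pattern: Ccnb2 and Plk1, with the largest limits against the mark, Ccna1, the germ cell cyclin, Cdk1, the kinase partner of Ccnb2, and Mcm6 of the replication group. Genes of mitosis are commonly silenced outside dividing cells through the cell cycle homology region, often found near CCAAT boxes, and genes of S phase through E2F sites. Each line gives the 200 bases upstream of the annotated start, 5′ to 3′ on the gene's strand, from RefSeq on GRCm38.p6. Capitals mark matches on either strand to TTTGAA (the homology region), to CCAAT, or to TTTCCCGC, TTTGGCGC, TTTCGCGC or TTTGCCGC (E2F). Joined capitals in Mcm6 are overlapping E2F matches. The stretches are chr9:70421555-70421754 on the minus strand (Ccnb2), chr7:122159235-122159434 on the plus strand (Plk1), and chr3:55055056-55055255, chr10:69352913-69353112 and chr1:128359706-128359905 on the minus strand (Ccna1, Cdk1 and Mcm6).
Ccnb2: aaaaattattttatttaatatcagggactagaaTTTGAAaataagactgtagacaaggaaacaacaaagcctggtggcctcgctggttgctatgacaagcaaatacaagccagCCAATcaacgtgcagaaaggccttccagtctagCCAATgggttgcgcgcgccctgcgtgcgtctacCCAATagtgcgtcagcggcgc
Plk1: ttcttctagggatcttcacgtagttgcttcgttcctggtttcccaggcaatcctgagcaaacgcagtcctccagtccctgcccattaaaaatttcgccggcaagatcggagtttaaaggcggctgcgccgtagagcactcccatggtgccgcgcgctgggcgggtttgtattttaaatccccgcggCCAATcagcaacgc
Ccna1: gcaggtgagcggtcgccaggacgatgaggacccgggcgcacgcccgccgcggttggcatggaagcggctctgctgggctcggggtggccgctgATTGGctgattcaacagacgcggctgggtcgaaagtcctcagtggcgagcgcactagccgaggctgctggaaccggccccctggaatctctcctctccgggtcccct
Cdk1: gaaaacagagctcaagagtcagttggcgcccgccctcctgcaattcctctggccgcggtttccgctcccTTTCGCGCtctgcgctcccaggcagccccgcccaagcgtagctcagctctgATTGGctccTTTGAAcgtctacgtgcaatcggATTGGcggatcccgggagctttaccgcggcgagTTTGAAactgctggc
Mcm6: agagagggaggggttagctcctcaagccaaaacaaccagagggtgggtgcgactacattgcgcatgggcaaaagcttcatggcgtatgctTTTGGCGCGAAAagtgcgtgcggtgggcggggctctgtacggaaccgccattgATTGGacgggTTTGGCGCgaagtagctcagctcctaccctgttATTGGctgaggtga

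Matches were counted in 300 bases, from 250 before to 50 after the start, for the 27 measured genes with an entry. TTTGAA was found for 13 of the 27 genes (48.1%) and in 17.9% of all 32851 promoters of that length. CCAAT was found for 22 of 27 (81.5%) and in 37.4% of all, and an E2F site for 4 of 27 (14.8%) and in 2.26% of all. Ccnb2 had 2 TTTGAA matches, of which 1 begins 5 bases after the start and so is not in the printed stretch, and 3 CCAAT boxes. Plk1 had its TTTGAA 31 bases after the start. Cdk1 had 2 TTTGAA matches, 3 CCAAT boxes and 1 E2F site, its furthest CCAAT box lying before the printed stretch, and Mcm6 3 E2F sites and 2 CCAAT boxes with no TTTGAA. Ccna1 had 1 CCAAT box and neither of the other motifs. Among the 16 genes with an entry that were lower in overload under vehicle, 10 held TTTGAA and 0 an E2F site, against 3 and 4 of the other 11. Of the 16, Bub1, Ttk, Cdc20, Ube2c, Cenpf and Birc5 were under the mark on both vehicle arrays. The other 11 include Mcm2, Mcm3, Mcm5, Mcm6, Pcna, Rrm2 and Tyms of the replication group. A link between motif and overload difference was not tested. A match describes the letters of the window and nothing of the factor.

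Overload under GW4869 came with small differences of these genes. In GW-SA 4 of the 33 were at least 1.5-fold higher than in GW-Sham, beside 12.1% of all genes, and 6 were lower, beside 14.7%, so both shares were close to those of all genes. The median was -0.08, and that of all genes -0.05. Higher in overload were Nusap1 (0.93), Aurkb (0.75), Rrm1 (0.75) and Pcna (0.66), of which Rrm1 and Pcna were readable on both arrays. Lower were Top2a (-0.83), Bub1 (-0.82), Ccna2 (-0.80), Ttk (-0.69), Ube2c (-0.66) and Mki67 (-0.61), of which Mki67 alone was above the mark on both. At 2-fold, 0 of the 33 were past in either direction, beside 5.27% of all genes higher and 4.76% lower. Ccnb2, Plk1, Ccna1 and Aurka were under the mark on both arrays, so no fold is given for them. Whether the overload differences of the 2 injections differ beyond error was not tested, since neither has a replicate.

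Centred on the median of adipocyte genes, 9 of the 33 (27.3%) were higher in overload under GW4869 and 0 lower. Of all genes, 28.9% were then higher and 5.34% lower. Centred on the mean of adipocyte genes, 11 (33.3%) were higher and 0 lower, beside 32.5% and 4.76% of all genes. The shares that were higher were thus close to those of all genes, and both moved with scaling. The epididymis list, whose median was 13.68 on GW-SA and 3.77 on GW-Sham, moved with this comparison. The log2 of its summed level was 20.1 on GW-SA and 13.2 on GW-Sham. Its part in the higher readings of Rrm1 and Nusap1 was not tested.

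GW4869 in sham mice came with lower readings of mitotic genes, in a comparison that shares the Veh-Sham array with overload under vehicle. Of the 33, 14 were at least 1.5-fold lower in GW-Sham than in Veh-Sham, beside 15.2% of all genes, and 7 were higher, beside 24.3%. Of the 14, Rrm1 was readable on both arrays (-0.94), 8 on Veh-Sham only and 5 on neither. With readings under the mark set to it, 2 of the 33 were higher and 5 lower, beside 13.1% and 8.51% of all genes. Against the mark, Ccnb2 was at least 17.9-fold lower under GW4869, Plk1 at least 2.76-fold, Aurka 1.63-fold, Cenpe 1.59-fold and Ccna1 1.25-fold. The genes that were higher were Ccna2 (1.25), Mki67 (1.23), Tyms (0.94), Mcm4 (0.87), Mcm2 (0.79), Melk (0.67) and Mcm3 (0.60). Of these, Mki67 and Tyms were readable on both arrays, a 2.34-fold and a 1.92-fold difference. The counts were 9 higher and 12 lower with all-gene centring, beside 47.8% and 10.98% of all genes. The adipocyte median gave 2 and 22, beside 7.65% and 31.1%, and the adipocyte mean 4 and 18, beside 14.2% and 20.2%. Spermatocyte genes were lower in 15 of 16 cases in the same comparison, and macrophage markers higher in 13 of 13. Their part in these differences was not tested.

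GW4869 in overloaded mice, the comparison that leaves out both sham arrays, came with higher readings. Of the 33, 11 were at least 1.5-fold higher in GW-SA than in Veh-SA, beside 15.1% of all genes, and 2 were lower, Ccne2 (-0.75) and Ccna1 (-0.67), beside 19.4%. Of the 11, 3 were readable on both arrays, Rrm1 (1.09, 2.13-fold), Mki67 (0.71, 1.63-fold) and Pcna (0.70, 1.62-fold). The other 8, Aurkb, Plk1, Ube2c, Kif20a, Cenpf, Nusap1, Tpx2 and Birc5, were under the mark on both, as were Ccne2 and Ccna1. With all-gene centring 6 were higher and 2 lower, beside 10.1% and 30.5% of all genes. With centring on the adipocyte median the counts were 28 and 0, beside 58.5% and 2.20%. On the adipocyte mean they were 26 and 0, beside 49.1% and 3.28%. With readings under the mark set to it, 3 (9.09%) were higher and 0 lower. Of all genes 8.26% were then higher, a close share, and 8.42% lower. Macrophage markers had a median of 12.05 on GW-SA and 9.50 on Veh-SA, with 10 of 13 higher and a log2 summed level of 17.2 against 15.8. Epididymis genes were higher in 13 of 13 cases. The part of either list in the cell cycle values was not tested.

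**Figure D3:**
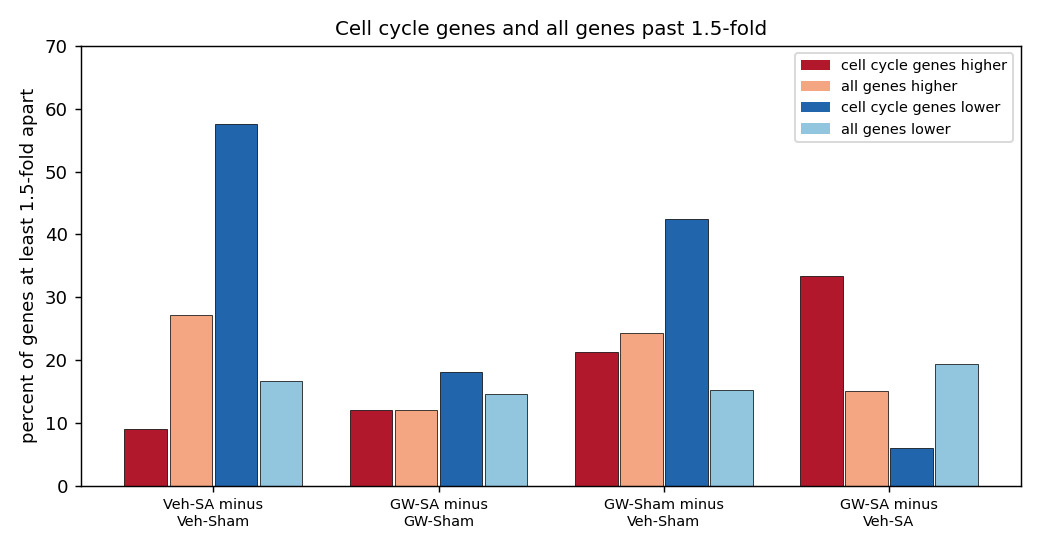
Percent of the 33 cell cycle genes (dark bars) and of all 19505 genes (pale bars) at least 1.5-fold higher (red) or lower (blue) in each of the 4 comparisons, with 1 array on each side. The share of cell cycle genes that were lower was 57.6% for Veh-SA minus Veh-Sham and 42.4% for GW-Sham minus Veh-Sham, which share the Veh-Sham array, and 18.2% and 6.06% in the comparisons without it.

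Other genes of the pathway, 101 of them measured, were read beside these, while the cyclin gene Ccnd1 was not analysed here. Among 45 further mitotic genes 22 were at least 1.5-fold lower in Veh-SA than in Veh-Sham and 5 higher, with a median of -0.54, beside 16.7% and 27.2% of all genes. The split depended on scaling, as did that of all genes. All-gene centring gave 14 lower and 11 higher (median -0.07), beside 11.4% and 56.0% of all genes. Quantile normalization gave 16 and 9, beside 15.2% and 33.2%. The adipocyte median gave 36 and 0, beside 57.7% and 2.56%, and the adipocyte mean 31 and 1, beside 31.2% and 9.07%. The share of lower genes was thus above that of all genes under each setting. Of the 45, however, only 9 were above the mark on Veh-SA and 13 on Veh-Sham. Many of these counted differences thus involve readings under it. Kif2c, a kinesin that takes microtubules apart, had 4.07 on Veh-SA against 10.66 on Veh-Sham, Cdca3, which promotes mitotic entry, 3.56 against 8.70, and Pbk, a mitotic kinase also abundant in testis, 3.97 against 8.86. On GW-SA and GW-Sham these genes lay between 3.41 and 4.79, so that they were high on Veh-Sham alone. Under GW4869, 12 of the 45 were lower in overload and 5 higher, beside 14.7% and 12.1% of all genes. With the adipocyte median 5 were lower and 8 higher, beside 5.34% and 28.9%. The largest of these deposited differences, those of Sgo1, a guardian of centromere cohesion, the kinetochore gene Nuf2 and Cep55, of cytokinesis, came from readings under the mark on both arrays.

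Of 25 further replication genes, 6 were higher and 6 lower in overload under vehicle, with a median of 0.00, beside 27.2% and 16.7% of all genes. All-gene centring gave 11 higher and 1 lower, beside 56.0% and 11.4% of all genes. The adipocyte median gave 0 and 18, beside 2.56% and 57.7%. These genes thus had no direction that held across scalings, and neither had all genes. Under GW4869 5 were higher and 3 lower, beside 12.1% and 14.7% of all genes. With the adipocyte median 8 were higher and 1 lower, beside 28.9% and 5.34%. The polymerase gene Pola1 was at 6.75 on Veh-SA, above the mark, and at 5.60 on Veh-Sham, under it, while Gins1, of the replicative helicase complex, and the ligase gene Lig1 were under the mark on both. Under GW4869 the polymerase gene Pola2, readable on both arrays, was at 7.74 on GW-SA and 6.98 on GW-Sham, and Cdc45, of the helicase, at 6.37 and 7.21, whereas the licensing factor Cdc6 was under the mark on both.

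E2f and Myb regulators included one that was readable on Veh-Sham alone. Mybl1, the A-Myb factor that in mice switches on meiotic genes in spermatocytes, was at 5.44 (GW-SA), 5.57 (GW-Sham), 4.11 (Veh-SA) and 7.59 (Veh-Sham). In the list of 16, 6 were higher and 3 lower in overload under vehicle, beside 27.2% and 16.7% of all genes. All-gene centring gave 10 and 1, beside 56.0% and 11.4%, and the adipocyte median 0 and 8, beside 2.56% and 57.7%. E2f7 and E2f3 were under the mark on both vehicle arrays. Under GW4869 4 were higher and 1 lower, beside 12.1% and 14.7% of all genes. All-gene centring gave 3 and 1, beside 9.48% and 19.2%. The readable E2f5 was at 0.82 and E2f6, a repressor, at -0.85, and Lin9 was under the mark on both arrays.

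Genes of the G1 decision were expressed well above the mark. All 5 measured G1 cyclins and kinases passed it on every array. Cdk6, a partner of the D-type cyclins, was at 10.33 on GW-SA, 9.37 on GW-Sham, 8.12 on Veh-SA and 8.005 on Veh-Sham, higher on the GW4869 arrays than on the vehicle arrays like Mki67. Under vehicle 1 of the 5 was higher in overload, Ccnd2 (0.68), beside 27.2% of all genes. Cdk2 (-0.63) was the 1 lower, beside 16.7%, with Ccnd3 at -0.17. All-gene centring gave 2 higher and 0 lower, beside 56.0% and 11.4%, and the adipocyte median 0 and 4, beside 2.56% and 57.7%. Under GW4869 3 were higher, Cdk6 (0.96), Cdk2 (0.79) and Cdk4 (0.67), and 0 lower, beside 12.1% and 14.7% of all genes. With all-gene centring 2 of these 3 stayed past 1.5-fold, beside 9.48% of all genes higher. With the adipocyte median 3 were higher and 0 lower, beside 28.9% and 5.34%.

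The Cdk inhibitors held the largest readable differences among the G1 genes. Cdkn1a, the p21 inhibitor that p53 and stress induce, was at 11.82 on GW-SA, 11.47 on GW-Sham, 7.79 on Veh-SA and 9.97 on Veh-Sham. It was high on both GW4869 arrays and lowest in overload under vehicle, a difference of 4.02 log2 units between GW-SA and Veh-SA and of -2.18 between Veh-SA and Veh-Sham. Cdkn2c, an inhibitor of Cdk4 and Cdk6, was at 9.94, 11.74, 12.15 and 11.47 on GW-SA, GW-Sham, Veh-SA and Veh-Sham, with GW-SA alone low. In the list of 10, 3 were higher in overload under vehicle, among them Cdkn1b (0.89) and Cdkn2b, under the mark on both arrays, and 1 lower, beside 27.2% and 16.7% of all genes. All-gene centring gave 6 and 1, beside 56.0% and 11.4%, and the adipocyte median 0 and 5, beside 2.56% and 57.7%. Under GW4869 0 were higher and 1 lower, Cdkn2c (-1.80), beside 12.1% and 14.7% of all genes. All-gene centring gave the same counts, beside 9.48% and 19.2%. Cdkn1a was at 0.34 and Cdkn1c under the mark.

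**Figure D4:**
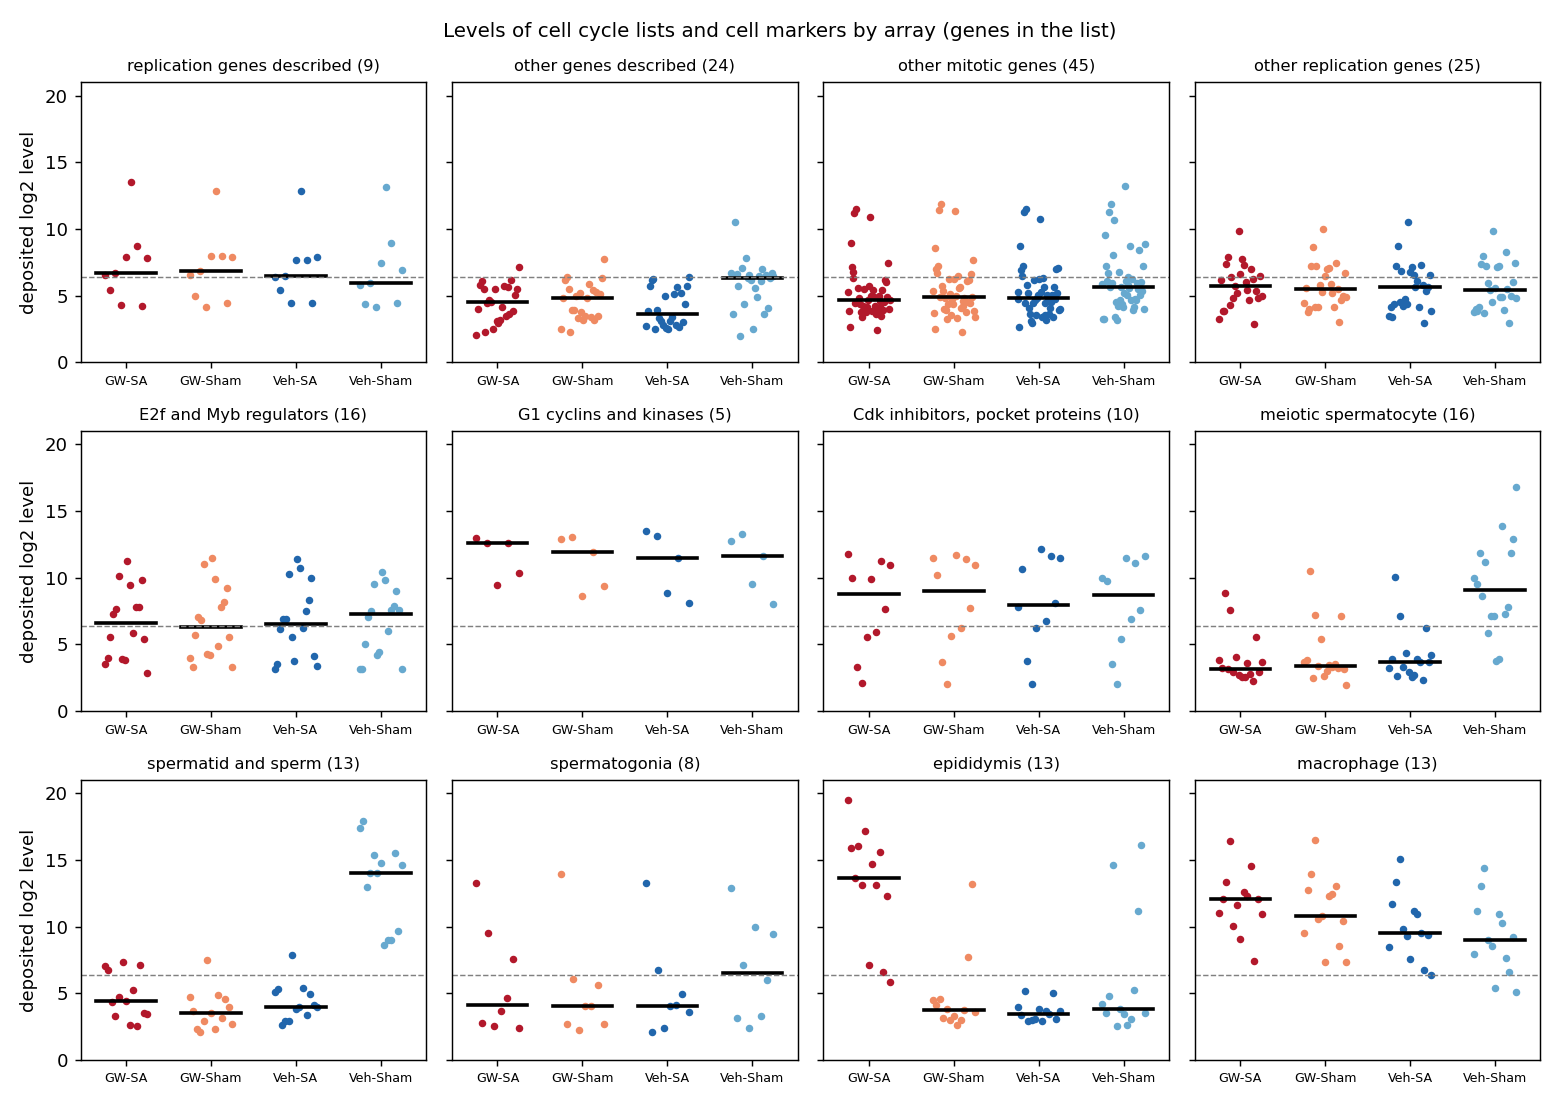
Deposited log2 levels (y axis) on each array (x axis, 1 array per group) of the genes in 12 lists, 1 dot a gene, with bars at the list median and a dashed line at the highest background mark. The described genes outside replication had a median of 4.48 on GW-SA, 4.82 on GW-Sham, 3.61 on Veh-SA and 6.33 on Veh-Sham, and the spermatocyte and spermatid lists stand high on Veh-Sham only.

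Within the spermatocyte list, Ldhc, the lactate dehydrogenase of the germ line, was at 3.67 on GW-SA, 1.97 on GW-Sham and 4.19 on Veh-SA, against 16.82 on Veh-Sham. Mael, of the piRNA pathway, had 3.33 to 3.88 on those 3 arrays and 13.88 on Veh-Sham, and Pgk2, a germ cell glycolytic enzyme, 2.94 to 3.70 and 12.94. These genes were thus under the mark on every array but Veh-Sham. Sycp3, of the axis of meiotic chromosomes, was readable on every array, at 8.86 (GW-SA), 10.53 (GW-Sham), 10.08 (Veh-SA) and 11.85 (Veh-Sham), so that this gene alone would not mark the array.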

How the data were processed

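Per the submitters' processing notes, the authors made the deposited log2 values per probe set with Partek and RMA. Versions, background step, normalization settings and genome build: not given in the sources used. The table has 28846 rows. The platform annotation gave 19572 probe sets 1 symbol, and a lookup by Entrez identifier altered 0 of them. Where several probe sets named a gene, the brightest by mean was used, which left 19505 genes. No other filter was used. Groups came from the sample titles, and 4 differences between arrays were taken. Levels were compared within a gene, not between genes.

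The genes, gene lists and rules were chosen with earlier results of these data known. All listed genes with a probe set are described. Of each other pathway list, up to 3 genes with the largest difference per overload comparison are named, and of the cell marker lists some of the 3 (vehicle) or 2 (GW4869). The mean of a gene's probe sets, centring, quantile normalization, a floor at the 40th percentile of gene means (4.67) and a 2-fold threshold were tried as alternatives, with 2 more added after the values were seen. Counting was tested on simulated data. Python 3.11.15, numpy 2.4.6 and pandas 2.3.3 were used. Every value rests on 1 array per group.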

Additional observations from a re-analysis of the deposited data

Results flagged for a closer look

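In overload 3 of the 33 genes (9.09%) were past 1.5-fold in opposite directions under the 2 injections, a share close to the 8.27% of all genes. The difference between the injections was not tested. Rrm1 differed by 0.75 log2 units under GW4869 and by -1.28 under vehicle, from readings above the background mark on all 4 arrays. Nusap1 differed by 0.93 under GW4869 and by -1.39 under vehicle, and it passed the mark on Veh-Sham only. Aurkb differed by 0.75 under GW4869 and by -1.04 under vehicle, with 4 readings under the mark.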

How the results depend on the processing

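Counts below are of the 33 cell cycle genes at least 1.5-fold higher and lower, and medians are log2 differences. The mean of a gene's probe sets in place of the brightest left every value as it was, since each of these genes has 1 probe set. With all-gene centring, overload under vehicle gave 9 higher and a median of -0.57, GW4869 in sham mice a median of -0.082, and GW4869 in overload 6 higher and 0.052. With the adipocyte median, overload gave 0 higher and -1.95 under vehicle and 9 higher, 0 lower and 0.28 under GW4869, while GW4869 gave 2 higher, 22 lower and -0.93 in sham mice and 28 higher, 0 lower and 1.06 in overload. With the adipocyte mean, an alternative chosen after seeing the data, overload gave 0 higher and -1.51 under vehicle and 11 higher, 0 lower and 0.33 under GW4869, while GW4869 gave 4 higher and -0.67 in sham mice and 26 higher, 0 lower and 0.93 in overload. For the centred counts given here, the shares of all genes stand beside them in the sections above. Quantile normalization gave 5 higher for overload under vehicle, beside 33.2% of all genes, and 1 lower for GW4869 in overload, beside 20.1%. The cause of these shifts was not tested.

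Raising low values to the floor, overload under vehicle had a median of -0.33, and overload under GW4869 2 lower, beside 8.82% of all genes. GW4869 in sham mice had 4 higher, beside 17.0%. In overload GW4869 gave 4 higher and 1 lower, beside 11.1% and 10.9%, and a median of 0.00. The 19 genes with a mean above the floor gave 10 lower for overload under vehicle, beside 16.9% of the 11703 genes above it. They gave 2 lower under GW4869, beside 15.3%, and 9 lower for GW4869 in sham mice, beside 14.4%. For GW4869 in overload they gave 6 higher and 1 lower, beside 18.4% and 18.8%. At 2-fold, overload under vehicle had 1 higher, beside 10.6% of all genes, and overload under GW4869 0 higher and 0 lower, beside 5.27% and 4.76%. GW4869 in sham mice had 2 higher, beside 9.15%, and GW4869 in overload 3 higher and 0 lower, beside 7.39% and 6.59%. Setting readings under the antigenomic mark to it was also chosen after seeing the data. Overload under vehicle then had 1 higher and 5 lower, beside 13.8% and 9.37% of all genes, and a median of -0.049. Overload under GW4869 had 2 higher and 1 lower, beside 5.74% and 6.73%. GW4869 in sham mice had 2 higher and 5 lower, beside 13.1% and 8.51%, and -0.052. GW4869 in overload had 3 higher and 0 lower, beside 8.26% and 8.42%, and 0.021. These settings remove low readings or raise the threshold by construction.

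Leaving out a replicate was not possible, and no pairing either. No paired analysis was possible because each group has 1 array. Signal over background is a further limit, since 16 of the 33 genes (48.5%) were under the mark on all 4 arrays, a share close to the 46.2% of all genes.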

Other observations

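Other cell types that can divide in fat showed their own patterns beside the cell cycle genes. Endothelial markers had medians of 9.37 on GW-SA, 10.02 on GW-Sham, 10.29 on Veh-SA and 9.66 on Veh-Sham, with Vwf, the von Willebrand factor, at -1.37 in overload under GW4869 and at 1.57 under vehicle. Fibroblast and progenitor markers were highest on GW-Sham, with medians of 9.08 on GW-SA, 10.03 on GW-Sham, 9.76 on Veh-SA and 9.29 on Veh-Sham, and Mfap5, a matrix gene of progenitors, had -1.78 in overload under GW4869. Gpnmb, of lipid-laden macrophages, was at 14.53 (GW-SA), 13.08 (GW-Sham), 9.50 (Veh-SA) and 7.66 (Veh-Sham). Lymphocyte markers stayed under the mark in 7 of 7 cases on 3 arrays and passed it in 1 case, the B cell gene Cd79a, on GW-SA (6.88).

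Markers of spermatogonia, the germ cells that divide by mitosis, were mixed. Of 8, 3 were above the mark on GW-SA, 1 on GW-Sham, 2 on Veh-SA and 4 on Veh-Sham. Gfra1 was highest on GW-SA, at 9.52 (GW-SA), 6.07 (GW-Sham), 6.77 (Veh-SA) and 7.09 (Veh-Sham). Uchl1 passed the mark on GW-SA alone, at 7.60, 5.63, 4.93 and 5.96 in that order. Dazl and Ddx4, which later germ cells also express, were between 2.36 and 4.05 on GW-SA, GW-Sham and Veh-SA, against 9.97 (Dazl) and 9.46 (Ddx4) on Veh-Sham, while Stra8, which starts meiosis, read 3.17 on Veh-Sham, under the mark.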
